A study of Schmidtea mediterranea with 48 samples.

Results

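Tail pieces of *nr4A(RNAi)* planarians after 5 weeks of RNAi were compared with tail pieces of control animals at the same week. The comparison takes 6 of the 48 RNA sequencing libraries of the series, 3 from *nr4A(RNAi)* and 3 from control animals, and was followed across all contigs of the transcriptome that could be tested. The animals were the asexual CIW4 clonal line of *Schmidtea mediterranea*. Both groups were fed double-stranded RNA (dsRNA) mixed in liver and were starved before the tissue was taken, and control animals received dsRNA to *unc-22*, a *C. elegans* gene. Each library pooled tails from several animals, so a replicate is a pool, and the labels do not say whether the pools came from separate RNAi experiments. The p-values set each change against the spread between pools. Whether that spread includes variation between RNAi experiments is not known. The whole series has 16 groups of 3 libraries, from heads and tails at weeks 2, 3, 4 and 5.

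NR4A proteins are nuclear receptors, transcription factors that in many animals are switched on rapidly by stimuli and that can act without a known ligand. In planarians *nr4A* is expressed in muscle. Planarian muscle fibres carry much of the positional information of the body: they express the position control genes (PCGs), among them Wnt ligands in the tail and Wnt inhibitors in the head, and they secrete much of the extracellular matrix. The tail comparison shows which RNAs of the posterior end stood lower or higher after prolonged loss of *nr4A* function. In a piece of tissue, fewer cells of a type and less RNA per cell cannot be told apart.

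The 6 libraries held between 13395084 counts (*nr4A(RNAi)* replicate 3) and 42917781 counts (control replicate 3) on contigs. Deposited rows were summed by contig number (dd_Smed_v4_N, written dd_N here), and levels are given as CPM, the usual depth-scaled count of RNA sequencing, from the scaled library size. Because CPM is not divided by contig length, levels are compared between libraries and not between contigs. All 6 libraries carried reads for the muscle, neuronal, neoblast, epidermal and ciliated-cell markers examined, and no marker contig was at 0 in all of them. No pair of libraries was close enough to be one library deposited again. Names of contigs are those of their best BLAST hit, most often in human, as the study's supplementary file pairs them, and only a small share of the 18357 contigs tested had one.

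The dsRNA and the measurement of *nr4A* were both defined by primers, which are printed here because they fix which part of the transcript was targeted. The first pair below cloned the *nr4A* fragment, and the second pair was designed for quantitative PCR outside the dsRNA region. The last pairs cloned *qki* and *col21a1*, the contigs with the steepest falls among the targets that the study cloned. All are written 5′ to 3′ in lower case, and no letter is singled out.
nr4A cloning, forward: cgcgagtcagtcagccat
nr4A cloning, reverse: tgccgtggctggatgaag
nr4A qPCR, forward: gatggtcaattttaaatcaatcaacaa
nr4A qPCR, reverse: ggtccacagcaatgagttttaagc
qki (dd_11601), forward: caatctttcacaaatcgtgtcca
qki (dd_11601), reverse: caacgcagagttcaaacaatgc
col21a1 (dd_9565), forward: tggtgacaaatgaatgctcact
col21a1 (dd_9565), reverse: accaggatcaccttgggga

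The targeted gene was lower in every *nr4A(RNAi)* library. For *nr4A* (dd_12229), control libraries had 19.4, 24.4 and 19.3 CPM and *nr4A(RNAi)* libraries had 12.2, 13.9 and 14.9 CPM. The groups did not overlap, and the highest *nr4A(RNAi)* library was well below the lowest control. The log2 fold change was -0.62 ± 0.11 (SE, n = 3 and 3), or 1.54-fold lower, with an adjusted p of 0.00279 in edgeR's quasi-likelihood test. The count takes all reads on the contig, inside and outside the dsRNA region together. In the earlier tails the log2 fold change of *nr4A* was -0.69 at week 2, -0.49 at week 3 and -0.48 at week 4, none of which passed the threshold.

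The contigs that the study cloned as *nr4A* targets all fell at week 5. They were chosen with libraries of this series in view, so their direction is not independent evidence. All 10 were called lower (adjusted p under 0.05), beside 5.63% of all contigs tested, and their median log2 fold change was -1.32, beside 0.00 over all contigs tested. In all 10 the groups did not overlap, and all 10 stayed called when any 1 library was left out.

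The steepest falls were in *qki* (dd_11601), an RNA-binding protein of the Quaking family, and *col21a1* (dd_9565), a homolog of a fibril-associated collagen. For *qki* the control libraries had 11.8, 11.8 and 11.8 CPM and the *nr4A(RNAi)* libraries 1.43, 1.14 and 1.51 CPM. The control libraries were nearly identical, and the *nr4A(RNAi)* libraries lay far below them. The log2 fold change of *qki* was -3.13 ± 0.14 (SE), or 8.73-fold lower, with an adjusted p of 3.08e-08. For *col21a1* the control libraries had 100.5, 95.2 and 84.7 CPM and the *nr4A(RNAi)* libraries 15.7, 13.7 and 11.5 CPM. In each group replicate 1 was the highest and replicate 3 the lowest, and the gap between groups was many times the spread within them. Its log2 fold change was -2.75 ± 0.10 (SE), or 6.75-fold lower, with an adjusted p of 4.17e-09.

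A second tier fell about 3-fold. The contig dd_2972, which has no name, had 59.2, 58.1 and 49.4 CPM in controls and 18.2, 16.8 and 17.2 CPM in *nr4A(RNAi)* tails. *mmp19* (dd_3902), a homolog of a matrix metalloproteinase, an enzyme class that cuts extracellular matrix, had 54.2, 54.4 and 46.4 CPM in controls and 16.7, 19.6 and 15.6 CPM in *nr4A(RNAi)* tails. In both contigs control replicate 3 was the lowest control and still lay far above every *nr4A(RNAi)* library. Their log2 fold changes were -1.67 ± 0.08 and -1.57 ± 0.09 (SE), with adjusted p of 7.41e-08 and 5.97e-07.

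The remaining targets fell by 1.77-fold to 2.54-fold. *vim* (dd_950), named for the intermediate filament protein vimentin and one of the 2 epidermal-lineage markers examined here, had 532.7, 458.1 and 404.7 CPM in controls and 205.4, 201.4 and 141.2 CPM in *nr4A(RNAi)* tails, a log2 fold change of -1.34 ± 0.12 (SE). The other epidermal-lineage marker, *agat-1* (dd_920), had means of 745.1 and 728.7 CPM and did not pass the test (log2 fold change -0.03, adjusted p = 0.819). *ca12* (dd_11683), a carbonic anhydrase homolog that interconverts carbon dioxide and bicarbonate, changed by -1.30 on the log2 scale, and *psapl1* (dd_1706), which resembles saposins, cofactors of lysosomal lipid breakdown, by -1.21. The unnamed dd_508 changed by -1.002, *pcdh11y* (dd_9677), a protocadherin or cell adhesion protein, by -0.96, and *hspb1* (dd_2736), a small heat-shock protein, by -0.82. Adjusted p for these 6 targets lay between 1.6e-06 and 0.00017.

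**Figure D1:**
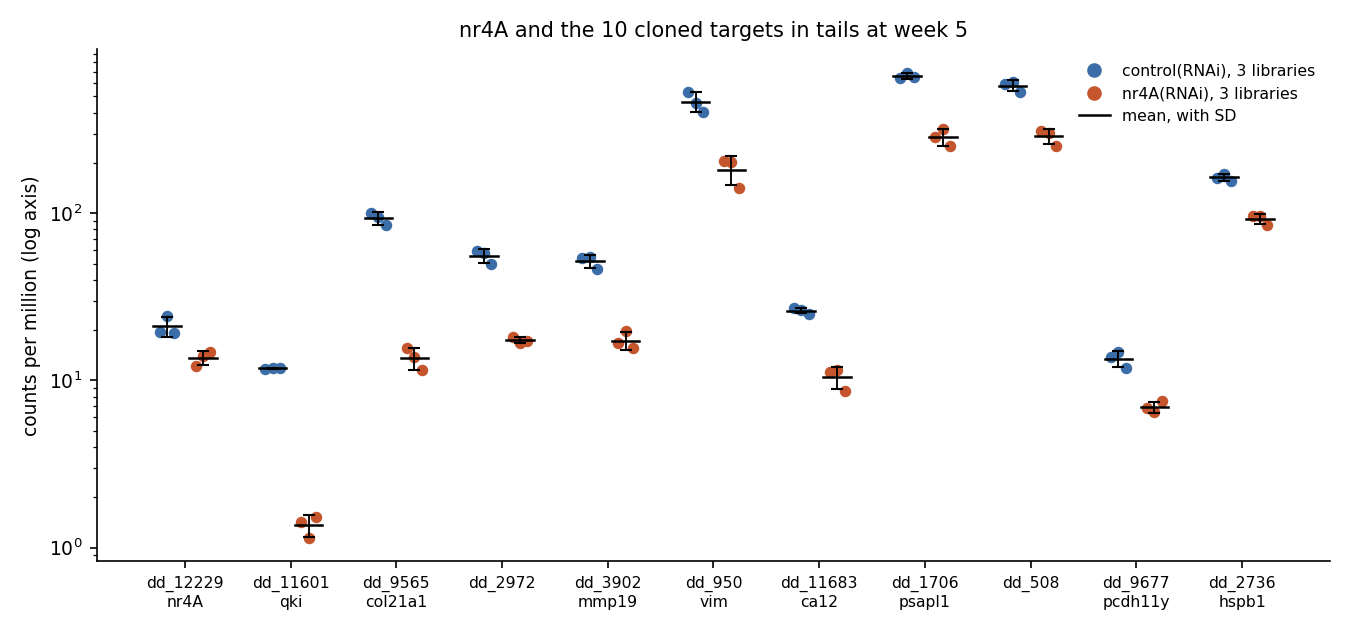
CPM (log axis) of *nr4A* and the 10 cloned targets in tails at week 5, one point per library, blue for control and orange for *nr4A(RNAi)*, with black lines for the mean and SD of 3 libraries. In all 11 contigs every *nr4A(RNAi)* library lies below every control, with the widest gaps for *qki* (11.8 against 1.36 CPM) and *col21a1* (93.5 against 13.6 CPM).

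Beyond the cloned targets, 1815 of 18357 contigs tested changed (9.89%), of which 1034 were lower (5.63%) and 781 higher (4.25%) in *nr4A(RNAi)* tails. The groups did not overlap in 5239 contigs (28.5%), 2670 with *nr4A(RNAi)* below control (14.5%) and 2569 above (14%); 1006 of those called lower and 772 of those called higher were among them. Contigs called lower held between 150540 and 153740 CPM in control libraries and between 110400 and 120450 CPM in *nr4A(RNAi)* libraries. Contigs called higher held between 36805 and 38940 CPM in controls and between 46965 and 51508 CPM in *nr4A(RNAi)* tails. These contigs were selected by their calls in the same libraries. The gap between these sums, and the lack of overlap among called contigs, follow from that selection and are not separate evidence.

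Most of these changes were small. The median called contig that fell did so by 1.28-fold (log2 fold change -0.36, quartiles -0.54 and -0.28), and the median called contig that rose did so by 1.27-fold (0.34, quartiles 0.27 and 0.46). Only 70 of the 1034 fell by more than 2-fold (6.77%) and 28 of the 781 rose by more than 2-fold (3.59%). Tested against a fold of 1.5 in place of no change, 39 contigs were called, 30 lower and 9 higher.

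The share of contigs called lower was highest among abundant contigs, and there it exceeded the share called higher. Of the contigs with a mean of 100 to 1000 CPM, 16.8% were called lower and 4.44% higher, and of the 100 contigs with 1000 CPM or more 14% and 3%. Of 8349 contigs with 10 to 100 CPM, 6.68% were called lower and 6.46% higher. Below 1 CPM 1.08% of 2212 contigs were called lower and 0.588% higher. The median SE of the log2 fold change was 0.35 below 1 CPM and 0.06 between 100 and 1000 CPM, so a change of the size of the median call was not detectable in most low contigs. The number of calls also depended on single libraries: it was 802 without control replicate 1, 1000 with control replicate 3 left out and 1013 with *nr4A(RNAi)* replicate 3 left out. Of the contigs called, 674 (37.1%) were called in the same direction whichever library was left out, 482 lower and 192 higher, and all 1815 kept their sign.

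**Figure D2:**
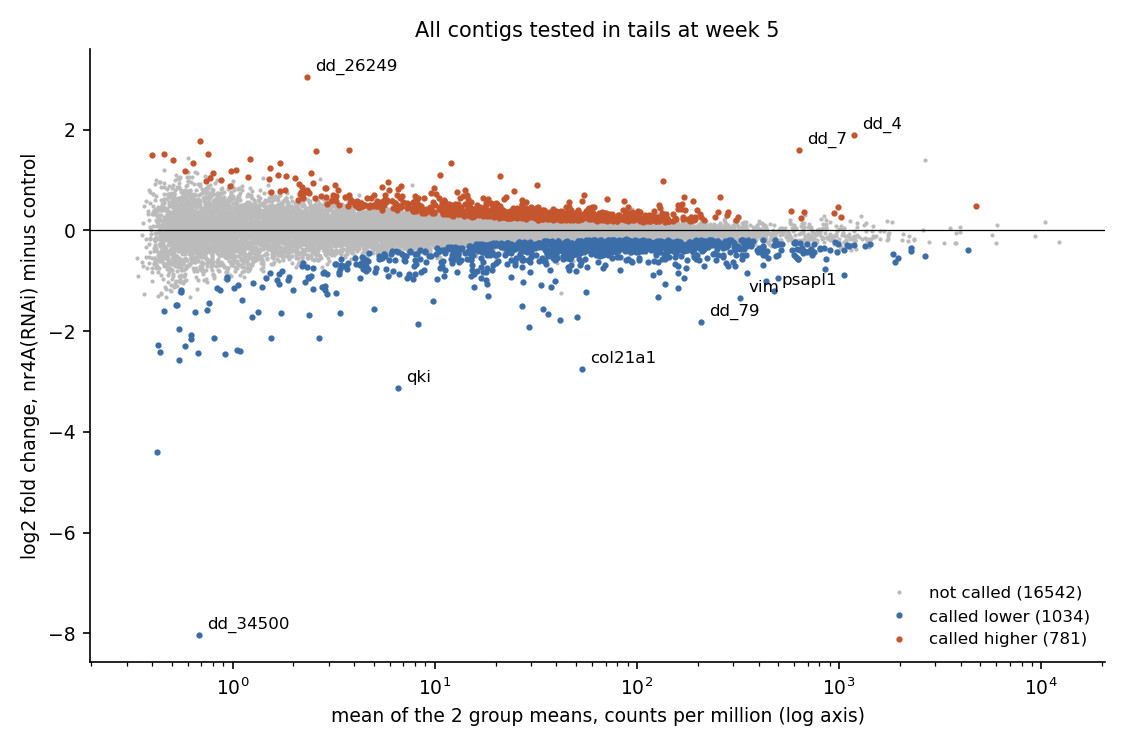
Log2 fold change of *nr4A(RNAi)* minus control tails at week 5 (vertical axis) against the mean level in CPM (log axis) for 18357 contigs, blue for 1034 called lower, orange for 781 called higher and grey for the rest. Most calls lie close to the zero line, *qki* and *col21a1* stand out below it, and dd_26249, dd_4 and dd_7 stand out above it.

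Among called contigs with at least 1 CPM and groups that did not overlap, the 10 steepest falls were *qki*, *col21a1* and 8 contigs without a name. Contig dd_7272 had 47.2, 41.3 and 50.7 CPM in controls and 12.9, 12.6 and 11.03 CPM in *nr4A(RNAi)* tails, a log2 fold change of -1.92 ± 0.09 (SE, adjusted p = 6.06e-08). Contig dd_16103 had 3.70, 4.64 and 4.62 CPM in controls and 0.98, 0.66 and 1.44 CPM in *nr4A(RNAi)* tails, a log2 fold change of -2.14 ± 0.23. Both also passed the threshold at weeks 3 and 4. Contig dd_52973 fell from 2.13, 1.56 and 1.72 CPM to 0.41, 0.09 and 0.58 CPM (log2 fold change -2.39 ± 0.37).

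The other 5 of these contigs varied more among the controls. Contig dd_79, the most abundant of them, had 330.8, 235.5 and 403.2 CPM in controls and 74.2, 117.5 and 83.8 CPM in *nr4A(RNAi)* tails, a log2 fold change of -1.82 ± 0.18 (SE). Contig dd_33 had 68.9, 45.7 and 78.3 CPM in controls and 15.03, 23.4 and 18.02 CPM in *nr4A(RNAi)* tails (-1.78 ± 0.18). In both, control replicate 3 was the highest and control replicate 2 the lowest, and *nr4A(RNAi)* replicate 2 was the highest of its group. The same order of controls was seen in dd_385 (9.0, 7.7 and 21.5 CPM), dd_19 (1.6, 0.7 and 3.0 CPM) and dd_4135 (1.9, 1.1 and 4.5 CPM). Leaving out control replicate 3, *nr4A(RNAi)* replicate 2 or *nr4A(RNAi)* replicate 3 ended the calls of dd_19 and dd_4135 (adjusted p up to 0.0699 and 0.0633).

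One contig below the 1 CPM limit, chosen after its values were seen, had no read at all in *nr4A(RNAi)* tails. Contig dd_34500 had 23, 36 and 54 counts in controls and 0 in each *nr4A(RNAi)* library, and it was at least 27-fold lower when 3 counts over the 3 *nr4A(RNAi)* libraries together are taken as the floor (adjusted p = 0.000154). That floor covers counting error only.

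No contig among the 10 largest rises had a name. Contig dd_26249 stood apart at low level, with 0.47, 0.47 and 0.53 CPM in controls and 3.72, 4.36 and 4.47 CPM in *nr4A(RNAi)* tails. The groups were tight and far apart, and the log2 fold change was 3.04 ± 0.21 (SE), or 8.24-fold higher (adjusted p = 2.35e-06). It was also called higher at week 3 (log2 fold change 2.80) and week 4 (3.49).

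The abundant contigs dd_4 and dd_7 rose together at week 5. Contig dd_4 had 518.9, 461.4 and 533.1 CPM in controls and 2052.2, 2383.9 and 1189.2 CPM in *nr4A(RNAi)* tails, a log2 fold change of 1.89 ± 0.18 (SE, adjusted p = 4.03e-05). Contig dd_7 had 309.8, 307.4 and 324.7 CPM in controls and 982.8, 1212.3 and 654.9 CPM in *nr4A(RNAi)* tails (1.598 ± 0.16, adjusted p = 4.26e-05). In both, *nr4A(RNAi)* replicate 2 was the highest and replicate 3 the lowest. In earlier weeks control tails held more of both and varied widely, and the log2 fold changes were below 0. At week 4 the controls held 4374.1, 2272.6 and 590.4 CPM of dd_4 and *nr4A(RNAi)* tails 1411.1, 690.0 and 575.9 CPM, a log2 fold change of -1.44 that did not pass the test (adjusted p = 0.651). The control means of dd_4 were 4270.9 CPM at week 2, 2142.1 CPM at week 3 and 2412.4 CPM at week 4, all above the 504.4 CPM of week 5.

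The remaining large rises were at 0.4 to 19.4 CPM. Contig dd_17223 had 6.69, 7.87 and 6.18 CPM in controls and 19.4, 17.5 and 14.6 CPM in *nr4A(RNAi)* tails (log2 fold change 1.34 ± 0.12, SE), and had also been called higher at week 4 (0.99). Contig dd_25893 had 1.09, 1.42 and 1.32 CPM in controls and 3.68, 3.99 and 3.96 CPM in *nr4A(RNAi)* tails (1.58 ± 0.18), and was called higher at week 4 as well (1.11). Contigs dd_38985, dd_28357, dd_32635, dd_52293 and dd_30031 rose by 1.604, 1.41, 1.33, 1.24 and 1.204 on the log2 scale. Leaving out control replicate 3, *nr4A(RNAi)* replicate 2 or *nr4A(RNAi)* replicate 3 ended the call of dd_28357 (adjusted p up to 0.0837), and without control replicate 3 that of dd_30031 was lost (adjusted p = 0.0592).

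**Figure D3:**
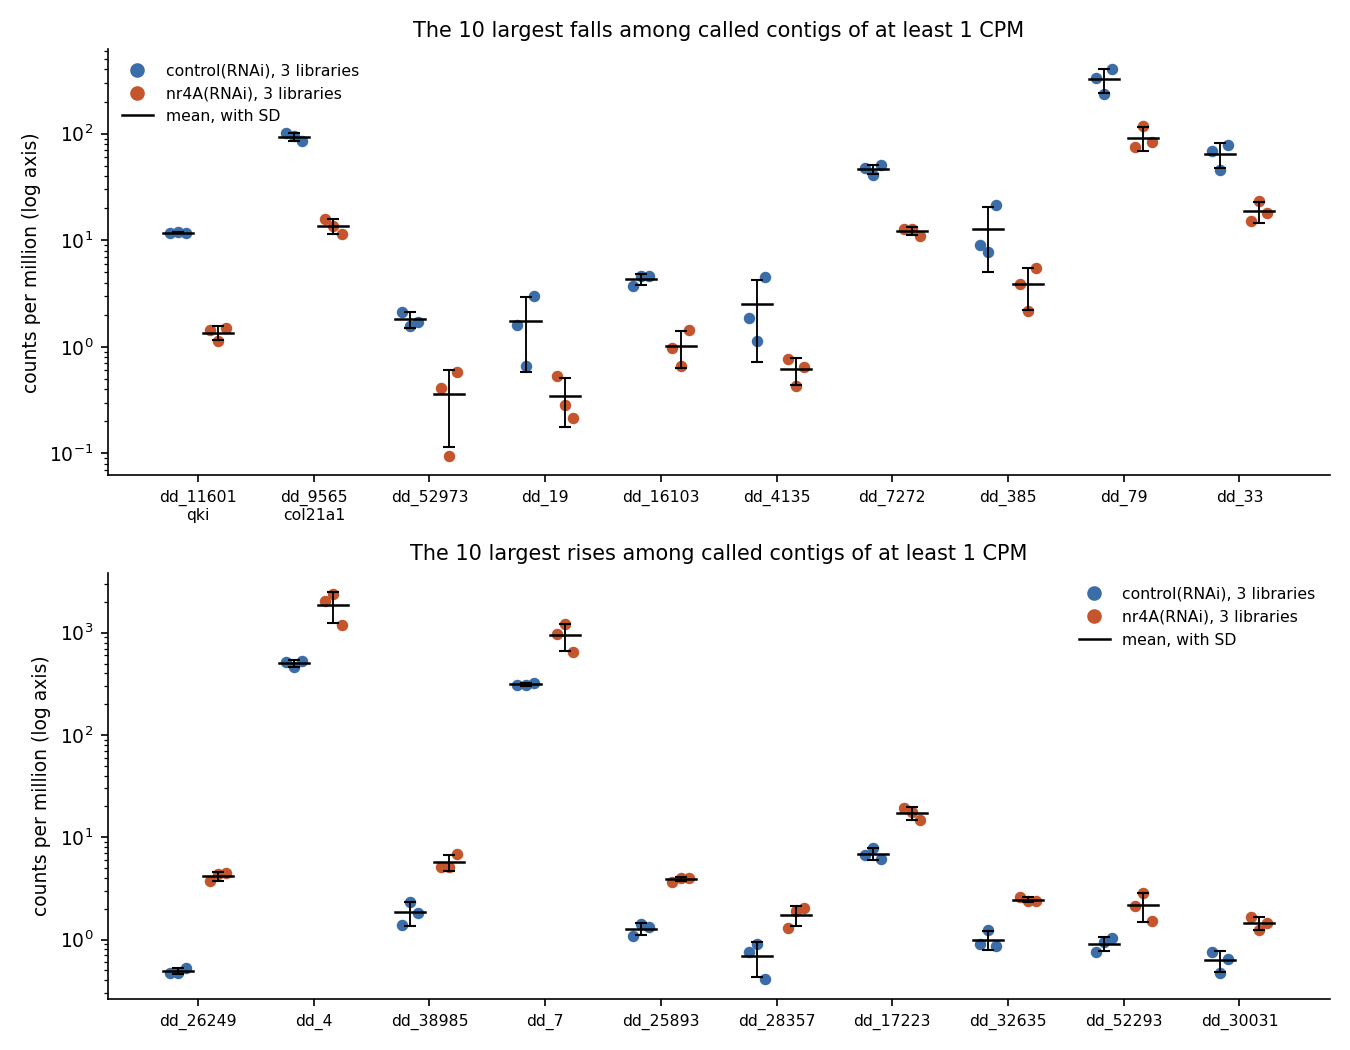
CPM (log axis) in the 6 tail libraries of week 5 for the 10 steepest falls (top) and the 10 largest rises (bottom) among called contigs of at least 1 CPM, blue for control and orange for *nr4A(RNAi)*, with black lines for mean and SD. Controls of dd_19, dd_4135 and dd_385 are widely spread, whereas *qki*, dd_7272 and dd_26249 form tight, separate groups.

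Among called contigs with a name, the steepest falls were those of cloned targets described above. Outside the cloned targets and *nr4A*, *COLGALT2* (dd_11681), a homolog of an enzyme that adds galactose to collagen, had 23.5, 23.9 and 21.7 CPM in controls and 12.3, 12.4 and 14.3 CPM in *nr4A(RNAi)* tails (log2 fold change -0.83 ± 0.08, adjusted p = 6.18e-05). It was called lower at weeks 3 and 4 too. A LIM-domain contig (dd_5037), of a family known in vertebrate muscle, fell by 0.61 on the log2 scale, and an aquaporin (dd_1224), a water channel, by 0.57, with tight controls at 162.7, 164.6 and 165.8 CPM and *nr4A(RNAi)* libraries at 111.2, 103.0 and 117.4 CPM. *NTN1* (dd_8504), a homolog of the secreted axon guidance cue netrin, had 24.5, 23.9 and 21.3 CPM in controls and 17.1, 15.7 and 16.4 CPM in *nr4A(RNAi)* tails (-0.49 ± 0.08, adjusted p = 0.00214).

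A few weaker calls completed the named falls: a CSMD-like contig (dd_13071, -0.55), X1.A5.1 (dd_585, -0.51) and the acyl-CoA synthetase *ACSS3* (dd_8062, -0.49). Each call was lost when control replicate 1 or *nr4A(RNAi)* replicate 3 was left out, and the adjusted p reached 0.133, 0.173 and 0.0709 over the libraries left out. These calls held in 3, 2 and 3 of 6 fits with 1 library left out.

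Among called contigs with a name, the largest rises were in *noggin* and *egf-6*, both secreted signalling proteins. *noggin* (dd_15423), a secreted inhibitor of BMP ligands, had 3.46, 4.55 and 3.88 CPM in controls and 7.84, 7.21 and 8.22 CPM in *nr4A(RNAi)* tails. The lowest *nr4A(RNAi)* library was well above the highest control, with a log2 fold change of 0.97 ± 0.13 (SE, adjusted p = 0.000537), and the call held whichever library was left out. The epidermal growth factor ligand *egf-6* (dd_6222) had 17.6, 18.6 and 18.1 CPM in controls and 28.3, 32.7 and 33.2 CPM in *nr4A(RNAi)* tails (0.79 ± 0.08), and was called higher at week 4 as well (0.59).

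*CACNA1H* (dd_14730), a homolog of a voltage-gated calcium channel, had 21.0, 21.4 and 21.6 CPM in controls and 32.5, 32.2 and 33.02 CPM in *nr4A(RNAi)* tails with a narrow spread in both groups (0.61 ± 0.06, adjusted p = 7.54e-05). *ADAMTSL3* (dd_3852), an ADAMTS-like matrix protein homolog, rose by 0.63 on the log2 scale, *MPPED1* (dd_9610) by 0.63, the calcium-activated potassium channel *KCNN3* (dd_14006) by 0.50 and the cation channel *PKD2L-2* (dd_9977) by 0.43. *FGD4* (dd_12943, 0.49), *OTOF* (dd_14162, 0.49), whose human homolog acts in vesicle fusion, and *KCNIP1* (dd_9434, 0.43), a partner of potassium channels, each lost their calls without control replicate 1, with adjusted p up to 0.153, 0.0862 and 0.0503. With each library left out in turn, these calls held in 1, 3 and 5 of 6 fits.

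Other members of the pathways were read from lists of contigs chosen by name, and for each the count of calls and the median log2 fold change are set beside those over all contigs tested. Major fibrillar and basement membrane collagens, which planarian muscle secretes, were lower on average without passing the test. None of 12 was called in the main edgeR fit (7 had an unadjusted p under 0.05, and DESeq2 called 1), 11 had a negative log2 fold change, and the median was -0.29 (from -0.39 to 0.01). For the most abundant, dd_649, control libraries had 2743.2, 2745.6 and 2160.8 CPM and *nr4A(RNAi)* libraries 2086.0, 2389.1 and 1603.4 CPM. The groups overlapped, and replicate 3 was the lowest library in each (log2 fold change -0.33, adjusted p = 0.127). In dd_402 the same order was seen (-0.34, adjusted p = 0.0595). The count of collagens called lower was 5 without control replicate 3, 6 with *nr4A(RNAi)* replicate 2 left out and 3 with no filter on low counts, so the count of 0 is not stable.

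In the contractile apparatus, 2 of 12 contigs were called lower (16.7%, beside 5.63% of all contigs tested) and 1 higher (8.33%, beside 4.25%), with a median of -0.12. Most of the 12 were above 100 CPM. At 100 to 1000 CPM 16.8% of all contigs were called lower and 4.44% higher, and at 1000 CPM or more 14% and 3%. The share called lower was thus near that of contigs of similar level. Both that fell were myosin heavy chains, the motor proteins of muscle. The abundant dd_432 had 5015.8, 5136.0 and 4576.8 CPM in controls and 3863.0, 3947.8 and 3470.8 CPM in *nr4A(RNAi)* tails, a log2 fold change of -0.38 ± 0.08 (SE, adjusted p = 0.0102). dd_1434 had 471.0, 474.7 and 432.9 CPM in controls and 353.7, 362.4 and 303.6 CPM in *nr4A(RNAi)* tails (-0.43 ± 0.07, adjusted p = 0.00239). Every *nr4A(RNAi)* library was below every control in both, although the call of dd_432 was lost without control replicate 1 (adjusted p = 0.0629). The myosin heavy chains dd_249 and dd_711, with changes of -0.19 and -0.16, did not pass the test (adjusted p = 0.192 and 0.182), and the call of the titin homolog dd_3381 (0.18) was lost whichever library was left out.

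Of 17 other matrix proteins and their processing enzymes, 3 were called lower (17.6%, beside 5.63% of all) and 2 higher (11.8%, beside 4.25%), with a median of -0.09. Beside *COLGALT2*, the falls were in *TNC* (dd_6736), a tenascin homolog (-0.39 ± 0.07, adjusted p = 0.00304), and *TLL1* (dd_1967), a tolloid homolog whose relatives process procollagen and BMP inhibitors (-0.25 ± 0.06, adjusted p = 0.0129, and 0.083 without control replicate 1). The rises were in *ADAMTSL3* and in dd_13903, a matrix-remodelling-associated contig (0.29, adjusted p = 0.01, and 0.053 without control replicate 3). The abundant perlecan homolog *HSPG2* (dd_3527), at -0.21, just missed the threshold (adjusted p = 0.0523).

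Few of the position control genes and pathway members that could be tested here passed the test. *wnt11-1* and *nlg-8* are not paired with a contig number in the sources used here and were not analysed here. From tail libraries of this series the study reported a rise of the former and a fall of the latter. The lists read here therefore leave out tail position control genes that the study found changed. None of 17 Wnt pathway contigs tested was called in the main edgeR fit or by DESeq2, 2 had an unadjusted p under 0.05, and the median was 0.02. With the replicate block 1 was called higher. The tail ligand *wntP-1* (dd_28398, also called *wnt1*), which marks the posterior pole, had 1.71, 2.75 and 2.20 CPM in controls and 2.86, 2.51 and 3.75 CPM in *nr4A(RNAi)* tails. The groups overlapped, and the log2 fold change of 0.42 ± 0.21 (SE) did not pass the test (adjusted p = 0.234). *wnt11-2* (dd_16209), another posterior ligand, had 38.5, 49.5 and 38.1 CPM in controls and 45.9, 48.4 and 54.0 CPM in *nr4A(RNAi)* tails (0.24 ± 0.10, adjusted p = 0.147), and among fits with 1 library left out it was called with control replicate 2, the highest control, left out (adjusted p = 0.0118 for dd_16209). By in situ hybridization the study saw *wnt1* and *wnt11-2* expression recede at the tail tip. The level of a whole tail piece does not show such a shift in place.

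*notum* (dd_24180), a secreted Wnt inhibitor best known at the anterior pole, was detected at low level in tails. Control libraries had 1.90, 1.56 and 1.75 CPM and *nr4A(RNAi)* libraries 2.53, 2.51 and 2.52 CPM. The groups did not overlap, but the log2 fold change of 0.54 ± 0.18 (SE) did not pass the test (adjusted p = 0.0746). The posterior pole transcription factors *pitx* (dd_15253) and *islet1* (dd_8820) changed by 0.13 ± 0.12 and 0.03 ± 0.09, with adjusted p of 0.566 and 0.892, so 2 SE on either side of the estimate is narrower than the fall of any cloned target. *foxD* (dd_23249), an anterior pole factor, was near 0.7 CPM in both groups and too low to show a change of moderate size (-0.30 ± 0.34). Among the 4 contigs of the nou darake and FGF receptor family none was called, with *ndk* (dd_11285) at -0.09 and *ndl-5* (dd_5102) at -0.21.

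Shares of calls in the next lists are read beside 5.63% of all contigs tested called lower and 4.25% called higher. In the BMP and activin pathway 1 of 8 contigs was called lower (*TLL1*) and 1 higher (*noggin*), 12.5% each. The signal transducers *smad4* (dd_1923) and *Smad1* (dd_6877), at 0.05 and 0.07, did not pass the test. None of 7 Notch and Hedgehog contigs was called in the main edgeR fit or by DESeq2, and 4 had an unadjusted p under 0.05. With RLE size factors or a filter at a mean of 100 counts edgeR called 1 higher, and with the replicate block 2. The median was 0.16, and the Delta-Jagged type ligand *JAG1* (dd_11876) was nearest to the threshold (0.22, adjusted p = 0.0524). Of 13 guidance receptors and ligands, *NTN1* was lower (7.69%). The Robo receptor dd_7921 (0.27) and the netrin receptor *UNC5C* dd_16435 (0.29) were called higher (15.4%). Neither of the rises stayed called without control replicate 1 (adjusted p up to 0.186 and 0.129 over the libraries left out). Their calls held in 1 and 2 of 6 fits with 1 library left out. The protocadherin and Fat cadherin list had 1 call of 11 (9.09%), the target *pcdh11y* at -0.96, while the median of the list was 0.16. Of 19 patterning and muscle transcription factors, *IRX2* (dd_11500) was called lower (-0.41) and an *OVOL1* homolog (dd_12010) higher (0.32). That is 5.26% each way, near the shares over all contigs tested. The *OVOL1* call was lost whichever library was left out (adjusted p up to 0.194). That of *IRX2* held in 3 of 6 fits with 1 library left out and was lost without control replicate 1 (adjusted p up to 0.0736). The muscle factors *myoD* (dd_12634, -0.12) and *nkx1-1* (dd_19327, -0.67) gave adjusted p of 0.66 and 0.0557.

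Nuclear-encoded mitochondrial proteins had mostly negative log2 fold changes. Of 24, 8 were called lower (33.3%, beside 5.63% of all contigs tested), none was called higher, 23 had a negative log2 fold change, and the median was -0.20. *ALDH6A1* (dd_2050), an enzyme of valine breakdown, had 234.1, 251.3 and 232.6 CPM in controls and 183.7, 183.2 and 171.4 CPM in *nr4A(RNAi)* tails (-0.41 ± 0.06, SE, adjusted p = 0.000599). Pyruvate carboxylase (dd_2393), which feeds the citric acid cycle, had 343.0, 351.3 and 344.7 CPM in controls and 278.3, 264.4 and 250.8 CPM in *nr4A(RNAi)* tails (-0.39 ± 0.06, adjusted p = 0.00103). In both, the groups lay well apart. The fatty acid oxidation enzyme *ACAA2* (dd_1411) and the ATP synthase subunit *ATP5O* (dd_981) changed by -0.39 and -0.30, and the abundant aldehyde dehydrogenase dd_1339 (-0.20) did not pass the test. The number of members called was 5 when control replicate 2 or *nr4A(RNAi)* replicate 3 was left out, 3 with the deepest and shallowest libraries left out together and 2 in one fit of all 24 tail libraries. In heads at week 5 the median of this list was 0.14, and 0.28 without head *nr4A(RNAi)* replicate 3, a library described below.

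Ciliary and neuronal contigs had mostly positive log2 fold changes. Of 15 contigs for cilia, 5 were called higher (33.3%, beside 4.25% of all contigs tested) and none lower, with a median of 0.18. *WDR66* (dd_11127), a homolog of an axonemal protein, had 34.7, 33.8 and 29.3 CPM in controls and 39.1, 41.4 and 44.6 CPM in *nr4A(RNAi)* tails (0.36 ± 0.08, SE, adjusted p = 0.0111). The rootletin homologs dd_1404 and dd_6573, of the ciliary rootlet, changed by 0.25 and 0.20, and *WDR96* (dd_10271) by 0.26. With replicate 3 of either group left out no member was called, and 1 was called when control replicate 1 or *nr4A(RNAi)* replicate 2 was left out. The 3 ciliated-cell markers *foxJ1*-like (dd_14635), *TEKT3* (dd_3187) and *DNAHb-1* (dd_3670) are members of the same list and did not pass the test, and their summed level was 278.3 to 354.9 CPM in controls and 335.4 to 404.0 CPM in *nr4A(RNAi)* tails. Their part in the list's shift was not tested.

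Of 26 contigs for neuronal signalling and channels, 6 were called higher (23.1%, beside 4.25% of all contigs tested) and none lower, with a median of 0.13. They included *CACNA1H*, *KCNN3*, *KCNIP1* and *OTOF*, and the count was 2 without control replicate 1 and 3 with *nr4A(RNAi)* replicate 3 left out. The count was also 2 in one fit of all 24 tail libraries, and 1 with the deepest and shallowest libraries left out together. The abundant prohormone convertase dd_1566, which marks neurons broadly, changed by 0.13 without passing the test (adjusted p = 0.229). The 3 neuronal markers summed to between 210.6 and 229.9 CPM in controls and between 218.8 and 244.8 CPM in *nr4A(RNAi)* tails, so the groups overlapped.

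Housekeeping and stem cell lists held few calls, read beside 5.63% of all contigs called lower. No contig of the 12 for DNA replication and neoblasts was called (median -0.06), with the planarian *vasa* homolog dd_2082 at -0.11 and an HMG-box contig (dd_1331) at 0.02, and none of 8 for lysosome and vacuolar ATPase (median -0.03). Splicing had 1 call of 20, a small nuclear ribonucleoprotein contig (dd_741, -0.19) whose call was lost whichever library was left out. The endoplasmic reticulum and Golgi list had 2 of 17 called lower (11.8%), dd_1502 (-0.32, adjusted p = 0.00393) and the surfeit-4 homolog dd_4665 (-0.22, adjusted p up to 0.12 with a library left out). Of 4 proteasome contigs, all with negative log2 fold changes, 1 fell (25%), dd_1278 (-0.24, adjusted p = 0.0142, and 0.057 without control replicate 2).

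The 4 body-wall muscle markers are themselves members of the collagen list (dd_702) and the contractile list (dd_432, dd_436 and dd_405), so they are not a separate readout. Of 4, 1 was called lower (dd_432), beside 5.63% of all contigs tested and 14% of those at 1000 CPM or more. All 4 had negative log2 fold changes, and the median was -0.22. Their summed level was 7334.6 to 8363.7 CPM in controls and 5768.0 to 6812.4 CPM in *nr4A(RNAi)* tails, a log2 ratio of -0.31 without overlap. That sum is weighted to dd_432, the most abundant, with a mean of 4335 CPM. Taken singly, only dd_432 had groups that did not overlap. The log2 ratio of the summed cloned targets was -1.21. The part of a lower muscle content in the falls of muscle-expressed targets was not tested.

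**Figure D4:**
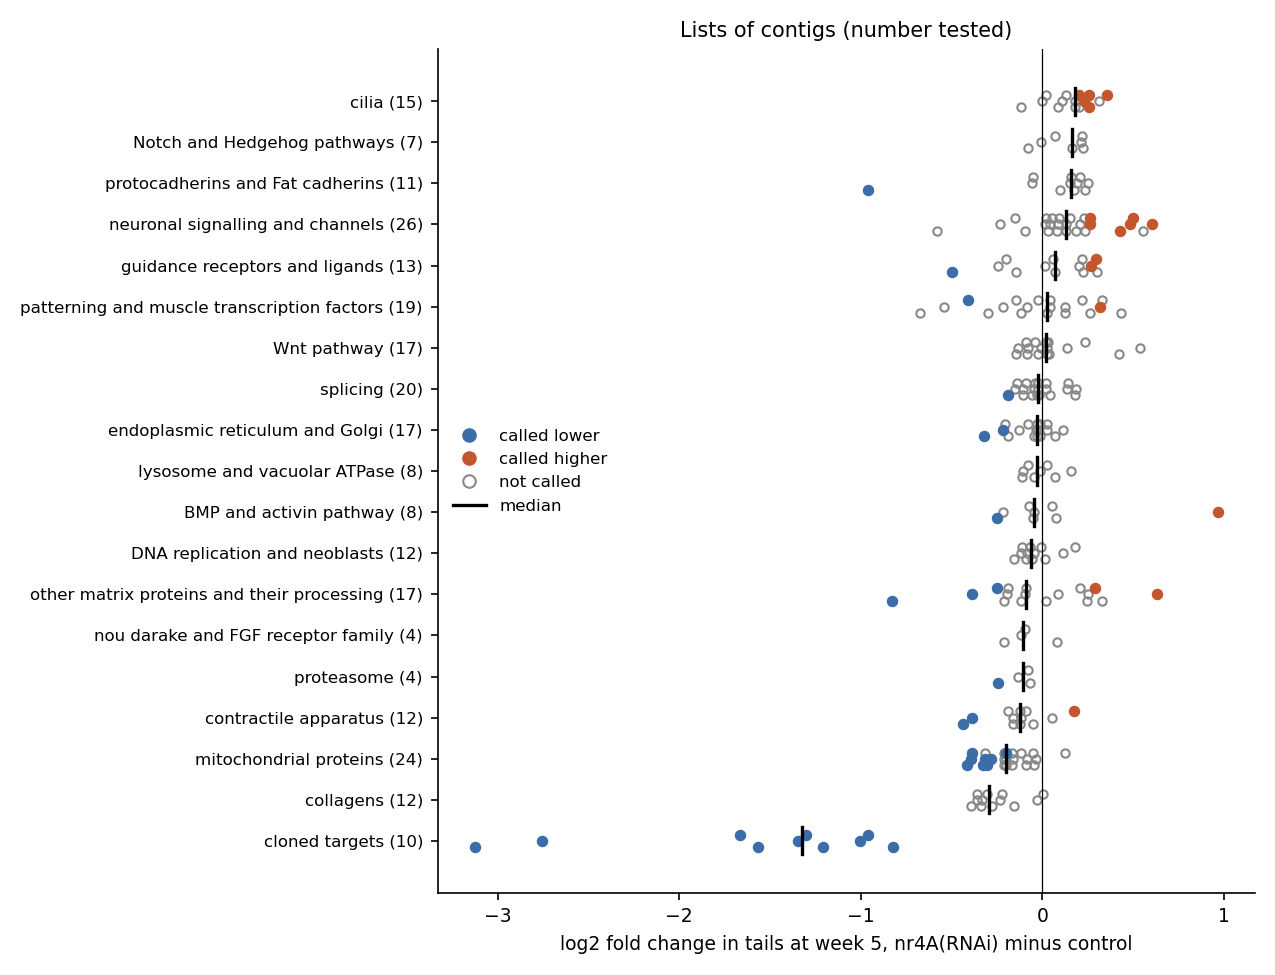
Log2 fold change of *nr4A(RNAi)* minus control tails at week 5 for each tested contig of 19 lists, with the number tested in brackets; filled blue points were called lower, filled orange points called higher, open points not called, and the black bar is the median. Cloned targets lie far to the left (median -1.32), collagens and mitochondrial proteins are shifted slightly to the left and cilia slightly to the right.

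Contigs that the study's supplementary file gives as enriched in poles or in *nr4A*-expressing muscle were read in the same way; these whole lists were added after the results had been seen. Of 183 posterior-pole-enriched contigs tested, 4 were called lower (2.19%) and 9 higher (4.92%), with a median of 0.03. Of 165 anterior-pole-enriched contigs of uninjured animals, 12 were called lower (7.27%) and 11 higher (6.67%), with a median of 0.03. Of 574 contigs enriched in *nr4A*+ muscle, 44 were called lower (7.67%) and 22 higher (3.83%), with a median of -0.03. Of 61 anterior-pole-enriched contigs of the blastema, 5 were called lower (8.2%) and 5 higher (8.2%), with a median of 0.02. Over all contigs tested the shares were 5.63% lower and 4.25% higher with a median of 0.00, so the share called lower was smaller in the posterior-pole list. The summed level of the posterior-pole list was 7330.4 to 7612.2 CPM in controls and 7543.9 to 7603.6 CPM in *nr4A(RNAi)* tails.

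The late response was also set against earlier tails, which come from separate libraries. With the same test, 0 contigs were called at week 2 (0%, with 239 at an unadjusted p under 0.05), 26 at week 3 (0.144%; 23 lower, 0.128%, and 3 higher, 0.0167%) and 76 at week 4 (0.407%; 58 lower, 0.31%, and 18 higher, 0.0963%). The spread between replicates differed: the common biological coefficient of variation was 23.6% at week 2, 11.7% at week 3, 10.6% at week 4 and 6.66% at week 5. Of the 57 contigs called lower at week 4 and tested in both weeks, 54 were called lower at week 5, which is 94.7% of the week 4 list and 5.24% of the week 5 list. Of the 18 called higher at week 4, 12 were called higher at week 5 (66.7% and 1.54%). Contigs called lower at week 5 had a negative log2 fold change at week 4 in 895 of 1031 cases (86.8%, beside 50.1% of all contigs tested in both), with a median of -0.15 at week 4 and -0.36 at week 5. Those called higher were positive at week 4 in 615 of 780 cases (78.8%, beside 49.9%), with a median of 0.09. At week 3 the shares of the same sign were 93.4% (beside 48.6%) for contigs called lower and 87.3% (beside 51.4%) for those called higher. At week 2 they were not raised: 400 of 1028 contigs called lower were negative (38.9%, beside 48.1%), with a median of 0.06, and 50.5% of those called higher were positive (beside 51.9%). One week 2 tail library, *nr4A(RNAi)* replicate 1, had 22207 contigs with reads, beside 23785 to 24188 in the other week 2 tails. Its part in the week 2 values was not tested.

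Cloned targets followed a gradual course. Their median log2 fold change was -0.62 at week 2, -0.93 at week 3, -1.15 at week 4 and -1.32 at week 5. *qki* changed by -1.43, -2.55, -2.74 and -3.13 from week 2 to week 5, and *col21a1* by -1.201, -1.67, -2.36 and -2.75. Not every target fell further each week, since *pcdh11y* stood at -1.09 at week 4 and -0.96 at week 5.

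Whether a contig changed more at week 5 than at week 4 was tested as the difference of the 2 differences over 12 tail libraries. Of 19258 contigs 5 passed (0.026%), all with a lower value at week 5, and 1203 had an unadjusted p under 0.05. None of the cloned targets was among them: the week 5 change of *qki* minus its week 4 change was -0.38 (adjusted p = 0.825) and that of *col21a1* -0.39 (adjusted p = 0.842). The larger number of calls at week 5 does not by itself show that changes had grown since week 4.

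The contigs that differed were dd_28, dd_33, dd_58, dd_79 and dd_644, none with a name. For dd_79, week 4 controls had 143.2, 85.3 and 87.6 CPM and week 4 *nr4A(RNAi)* tails 117.5, 124.3 and 109.3 CPM, against 235.5 to 403.2 CPM in controls and 74.2 to 117.5 CPM in *nr4A(RNAi)* tails at week 5. For dd_33, week 4 controls had 29.3, 18.2 and 17.2 CPM and *nr4A(RNAi)* tails 25.5, 23.4 and 23.003 CPM, against 45.7 to 78.3 CPM and 15.03 to 23.4 CPM at week 5. In both, the control libraries of week 5 were above all control libraries of week 4; levels of the 2 weeks were scaled separately. The controls of dd_28 likewise went from 18.4 to 33.3 CPM at week 4 to 52.7 to 107.6 CPM at week 5, with *nr4A(RNAi)* libraries at 26.2 to 40.3 CPM and 21.4 to 27.9 CPM. For dd_58 controls were at 58.6 to 90.4 CPM and 137.3 to 235.4 CPM, and *nr4A(RNAi)* libraries at 90.9 to 104.8 CPM and 62.2 to 82.8 CPM, so the groups moved in opposite directions.

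All 5 contigs went from a positive log2 fold change at week 4 to a negative one at week 5, but only dd_644 was called in both weeks. For the others the week 4 log2 fold changes were 0.15 to 0.46 and did not pass the test. At week 4 dd_644 was called higher, with 15.8, 10.1 and 13.4 CPM in controls and 33.2, 23.3 and 35.9 CPM in *nr4A(RNAi)* tails (log2 fold change 1.23, adjusted p = 0.0113). At week 5 it was called lower, with 22.5, 21.7 and 27.8 CPM in controls and 12.5, 16.7 and 16.004 CPM in *nr4A(RNAi)* tails (-0.69, adjusted p = 0.00279). The groups did not overlap in either week. The differences of the 5 contigs lay between -2.17 and -1.77 with adjusted p of 0.0101 to 0.0345, and none of them passed without *nr4A(RNAi)* replicate 3 of week 5 (adjusted p from 0.056 to 0.244). The count was 2 without control replicate 1, 2 without control replicate 3 and 9 without control replicate 2 of week 5.

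**Figure D5:**
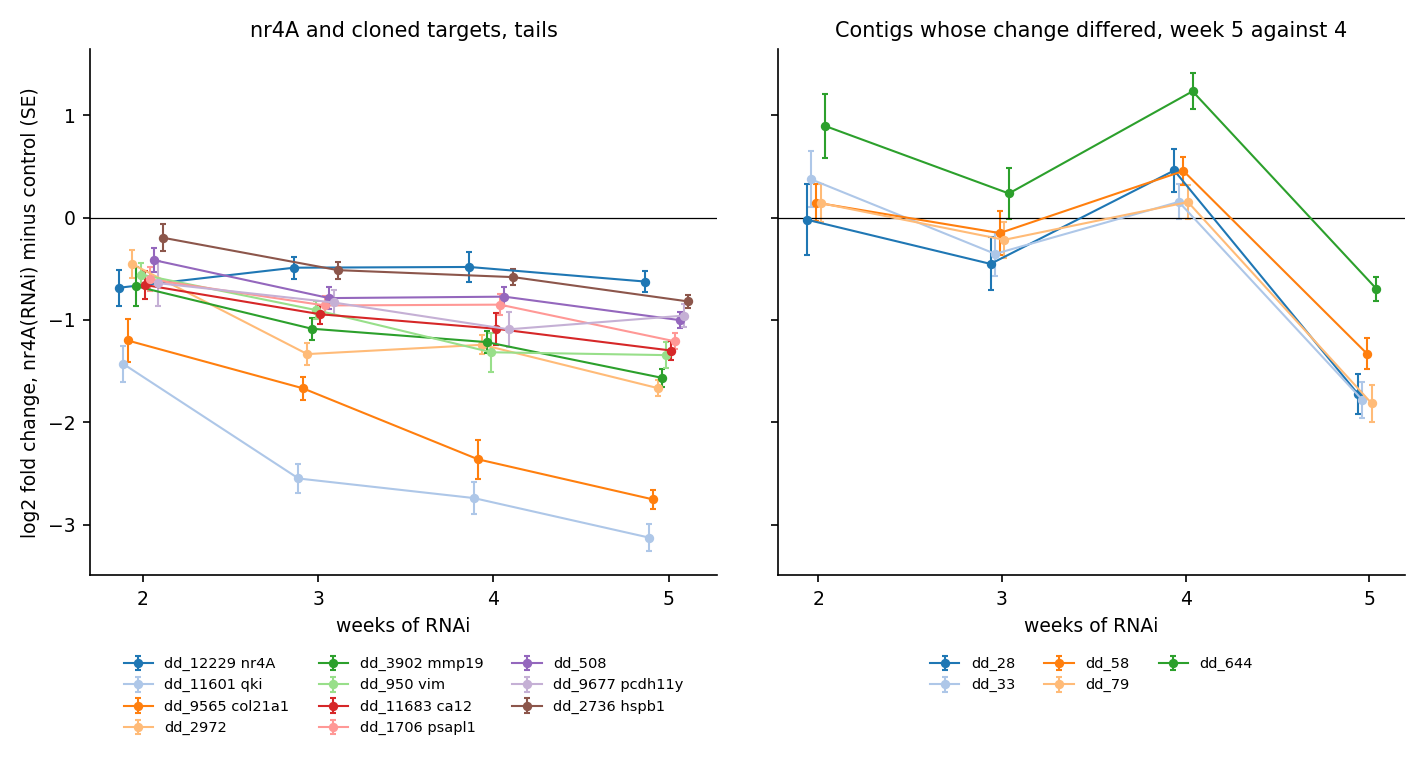
Log2 fold change of *nr4A(RNAi)* minus control tails (vertical axis, with SE) at weeks 2, 3, 4 and 5 of RNAi for *nr4A* and the 10 cloned targets (left) and for the 5 contigs whose change differed between weeks 5 and 4 (right). The targets lie below zero at every week, with *qki* reaching -3.13 and *col21a1* -2.75, whereas the contigs on the right are lowest at week 5.

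Heads of the same week were used to ask whether the tail response differed from that at the other end. One head library, labelled *nr4A(RNAi)* replicate 3, stood apart from replicates 1 and 2 and nearer to the control heads. Its root mean square distance in log2 CPM was 1.331 and 1.051 from the other *nr4A(RNAi)* head libraries, and 0.362 to 0.431 from the control heads. It also had 24005 contigs with reads and 12.7% of its counts on rows that name no contig, beside 23599 to 24104 contigs and 13% to 13.4% in control heads, whereas replicates 1 and 2 had 21444 and 22469 contigs and 18.8% and 16.8%. The part of these differences in the head values was not tested. The targeted gene was lower in all 3: control heads had 25.6, 25.3 and 26.1 CPM of *nr4A* (dd_12229) and *nr4A(RNAi)* heads 12.2, 12.4 and 16.7 CPM. With all 6 head libraries 2 of 18014 contigs were called in heads (0.0111%). Without replicate 3 the count was 11191 of 18351 (61%), in a fit that kept replicates 1 and 2, the libraries with fewer contigs with reads.

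The difference between the tail change and the head change followed the same library. It passed for 0 of 19324 contigs in edgeR's test (0%), with 2299 at an unadjusted p under 0.05 and 98 calls in DESeq2's Wald test. Without head *nr4A(RNAi)* replicate 3 the edgeR count was 10317, so the comparison of tails with heads turned on 1 head library.

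The log2 fold changes of the targets were negative at both ends of the body, although with all 6 head libraries only 1 of the 10 cloned targets, *ca12*, was called lower in heads (adjusted p = 0.0456, and 0.0985 for *qki*, *col21a1* and *mmp19*). For *col21a1* (dd_9565) control heads had 101.2, 86.2 and 89.6 CPM and *nr4A(RNAi)* heads 11.9, 12.5 and 22.1 CPM, without overlap. Its log2 fold change was -2.75 in tails, -2.58 in all heads and -2.94 in heads without the library. For *qki* (dd_11601) the 3 values were -3.13, -2.01 and -1.83, for *mmp19* -1.57, -2.05 and -2.29, for *ca12* -1.30, -1.34 and -1.41, and for *nr4A* -0.62, -0.90 and -1.08. The median over the cloned targets was -1.29 in all heads and -1.30 without the library.

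Outside the target list, *CACNA1H* (dd_14730), at 0.61 in tails, was at 0.00 in all heads, and *nr4A(RNAi)* head replicate 3 alone, at 59.6 CPM, was above the control heads of 37.5 to 42.1 CPM while replicates 1 and 2, at 27.9 and 31.7 CPM, were below them. *NTN1* (dd_8504) was at -0.49 in tails and 0.32 in all heads, which did not pass the test in heads (adjusted p = 0.32). Of contigs called lower in tails and tested in both, 660 of 1014 were negative in heads (65.1%, beside 48.4% of all), and of those called higher 509 of 774 were positive (65.8%, beside 51.6%). Without the head library that stood apart these shares were 55.8% (beside 49.8%) and 59.6% (beside 50.2%).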

How the data were processed

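RNA was extracted from pooled heads or tails of planarians, and polyA libraries were made with a kit that does not mark strand and sequenced on a HiSeq. Per the labels and the methods of the study, the authors base-called with CASAVA 1.7.0, trimmed reads with Trimmomatic 0.32, mapped them with Bowtie to the dd_Smed_v4 transcriptome and deposited raw read counts per contig, with tail isoforms in separate rows and head isoforms merged. Contigs carry no genome coordinates. The authors' DESeq tables, which hold base means, fold changes and p-values per week, were not used.

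The 38633 tail rows were summed to 26401 contig numbers. In heads, 4 rows that name no contig (12.4% to 18.8% of counts) were left out. Titles and column names spell the RNAi group differently in heads and tails; columns were assigned by tissue, group, week and replicate, and no column was left over. Contigs were filtered with filterByExpr, scaled by TMM and tested with the quasi-likelihood F test of edgeR 4.0.16 (R 4.3.3), with Benjamini-Hochberg adjustment over all contigs tested and a threshold of 0.05; the SE is the log2 fold change divided by the square root of F. The main fit used the 6 tail libraries of week 5, and the 2 tests of differences used 12 libraries each. An exact permutation test of 3 against 3 cannot go below 0.1 and was not used. Deviations from the group mean were weakly correlated between libraries of the same replicate number (0.018, 0.119 and 0.066). Between different numbers the correlations lay from -0.126 to 0.054. The labels do not say whether replicate numbers mark pairs, and the main fit took no pairing. Precision is limited by 3 pools per group and by depth, 13395084 to 42917781 counts per library.

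Alternatives were RLE size factors, other filters, rows as deposited, DESeq2 1.42.0, one fit of 24 tail libraries, a replicate block, a fold of 1.5, each library left out, and, added after seeing the depths, thinning and leaving out the deepest and shallowest libraries. Heads of week 5 were also fitted without 1 library that stood apart. In simulated data of the week 5 tail comparison, with 200 of its contigs changed, 81% of changes of 1.5-fold and 96% of 2-fold were recovered among 18386 contigs tested. The tests of differences recovered less: 38% and 88% between weeks 5 and 4 (19130 contigs tested), and 1% and 21% between tails and heads (18999). The simulations gave every contig the same spread, changed only contigs above 1 CPM and held no library that stood apart. Recovery in the real data can therefore be lower.

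Contigs named are *nr4A*, the 10 cloned targets, up to 4 called and 2 uncalled members of each list, the 10 largest changes in each direction over all contigs and over named contigs, the 5 largest in each direction in the tests of differences, and the pathway members. Members and lists were chosen with earlier results of these data known.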

Additional observations from a re-analysis of the deposited data

Results flagged for a closer look

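Between weeks 4 and 5 the tail change of 5 contigs differed by the test of the difference itself (edgeR quasi-likelihood test over 12 tail libraries, Benjamini-Hochberg adjusted over 19258 contigs). The week 5 log2 fold change minus that of week 4 was -2.17 for dd_28 (adjusted p = 0.0345), -1.92 for dd_33 (0.0219), -1.77 for dd_58 (0.0141), -1.96 for dd_79 (0.0206) and -1.91 for dd_644 (0.0101). None has a name in the sources used here. All 5 failed the threshold without *nr4A(RNAi)* replicate 3 of week 5.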

How the results depend on the processing

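The number of contigs changed in tails at week 5 (1815) lay between 1494 and 2047 with RLE size factors, other filters, rows as deposited, DESeq2 or thinning to the shallowest library. It was 2655 with the replicate block, and the labels do not say whether replicate numbers mark pairs. It was 334 in one fit of all 24 tail libraries, whose other weeks had a wider spread, 39 against a fold of 1.5, 419 with the deepest and shallowest libraries left out together, and 802 to 2012 with 1 library left out. For the difference between weeks 5 and 4 (5 contigs), 12 were called with no filter on low counts, 32 by DESeq2, 18 with the replicate block and 0 to 9 with 1 library left out. For the difference between tails and heads (0 contigs), DESeq2 called 98, the replicate block 0, and fits without 1 library 0 to 10317, the highest without head *nr4A(RNAi)* replicate 3. Without that library, left out of the heads after seeing the data, 11191 contigs were called in heads in place of 2. The cause of these shifts was not tested. All 10 cloned targets stayed called lower under every alternative but the test against a fold of 1.5, which called 8. Collagens called lower were 0 and became 9 with the replicate block. No named contig that was called turned its sign under any alternative. Contigs below 1 CPM were limited by depth.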
